A study of Mus musculus with 12 samples.

Results

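Splenic B cells of wild-type (WT) mice were followed from 1 h to 6 h of B cell receptor stimulation, by comparing the 3 WT libraries harvested at 6 h with the 3 harvested at 1 h. These are 6 of the 12 libraries of a study that also cultured B cells of Fcmr knockout (KO) mice, which lack the Fc receptor for IgM, at the same times. The B cells had been purified from spleen, were labelled as naive, and were kept with 10 µg/mL of anti-IgM F(ab')2, which cross-links the IgM receptor and, lacking the Fc part, does not engage Fc receptors. No unstimulated culture is among the samples, so a value at 1 h is that of cells already stimulated, and the duration of stimulation and that of culture cannot be told apart. The labels call the replicates biological without naming animals, and they give no strain, age or sex. Expression was measured by poly-A RNA sequencing and is given as FPKM, fragments per kilobase of gene, scaled to the library's total. Of the 55487 genes in the table, the 11841 whose average across all 12 libraries reached 1 FPKM were tested, and every one of them is a member of the comparison described here.

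When antigen or anti-IgM cross-links the B cell receptor, Src family kinases and Syk phosphorylate the receptor and its adaptors, and calcium, ERK, NF-kB and PI3 kinase signals follow. Immediate early genes are transcribed within minutes from promoters that need no new protein, and many of their transcripts are short-lived. Over the next hours the naive cell leaves quiescence, enlarges and builds the ribosomes, enzymes and mitochondria it needs before it replicates its DNA, with MYC as a central transcription factor of that growth.

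The WT libraries held 19260751 to 24013381 fragments, and between 11591 and 11822 genes reached 1 FPKM in each. A gene 2 kb long needed 0.0625 to 0.0779 FPKM to be seen with 3 fragments. Principal component 1 of the 12 libraries carried 83% of the variance and separated 1 h from 6 h. Fcmr stood at 352, 388 and 379 FPKM in the WT libraries at 1 h and at 368, 401 and 380.2 FPKM at 6 h, which overlapped (log2 change 0.04, limma, adjusted p = 0.497; after the rescaling described below -0.22, adjusted p = 0.00152). In the KO libraries Fcmr read 48.9, 50.1 and 48.9 FPKM at 1 h and 43.1, 46.4 and 42.6 FPKM at 6 h, lower than in WT but not absent. The B cell identity of the libraries was checked on Cd79a and Pax5, both above 34 FPKM in all 6 WT libraries, while transcripts of other blood cells were present at the levels given near the end.

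Most of the transcriptome moved between 1 h and 6 h. Of the 11841 genes tested, 9324 (78.7%) changed at an adjusted p under 0.05 (limma on log2(FPKM + 1)), 5865 upwards (49.5%) and 3459 downwards (29.2%). The changes were mostly moderate, since 2938 genes (24.8%) were past 2-fold, 1784 of them higher (15.1%) and 1154 lower (9.75%). Past 4-fold stood 146 higher genes (1.23%) and 220 lower genes (1.86%), and past 8-fold 6 higher (0.0507%) and 37 lower genes (0.312%). The log2 changes ran from -6.93 to 3.78, with a median of 0.21 and a middle range from -0.40 to 0.73.

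The balance of rises and falls depended on how libraries were put on one scale, because FPKM gives only shares. Median-of-ratios rescaling, which takes the typical gene as unchanged, moved the median of all genes by 0.23 on the log2 scale, to -0.02. It left 4581 higher (38.7%) and 4631 lower genes (39.1%), with 1076 (9.09%) and 1680 (14.2%) of them past 2-fold, so that the share of calls that were upward was 62.9% on the deposited scale and 49.7% after rescaling. Log2 changes below are on the deposited scale, and a change can be read against the median of 0.21. Counts of list members called can be read against 49.5% higher and 29.2% lower over all genes. Total RNA per cell was not measured here, and in bulk libraries fewer cells of a type and less RNA per cell cannot be told apart.

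The libraries of the 2 times were separated for most genes. Among the tested genes, 5895 (49.8%) had all 3 libraries at 6 h above all 3 at 1 h, and 3454 (29.2%) had them all below. Taken as pairs of equal replicate number, 9282 of the 9324 called genes moved the same way in all 3 pairs, and 2893 of the 2938 genes past 2-fold exceeded 1.5-fold in each pair. Both sets were chosen on these same libraries, so agreement between the pairs was largely fixed by that choice. The median SD of the 3 pairwise log2 changes of a gene was 0.12.

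**Figure D1:**
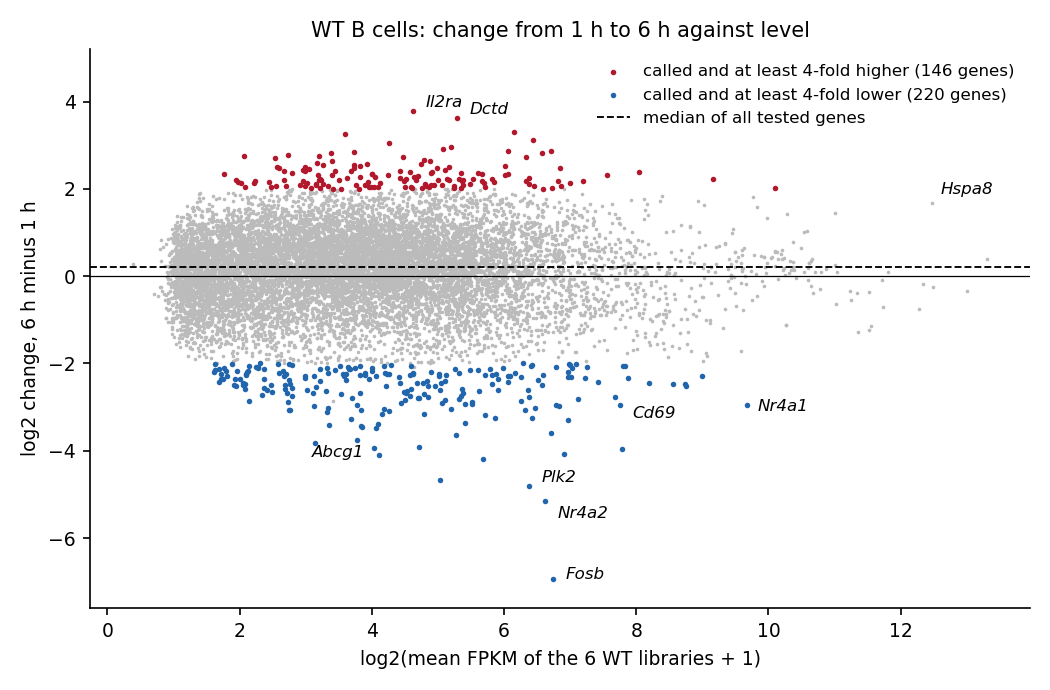
Each point is 1 of the 11841 tested genes, with log2 of the mean FPKM of the 6 WT libraries plus 1 on the x axis and the log2 change from 1 h to 6 h on the y axis. The 146 genes called and at least 4-fold higher and the 220 at least 4-fold lower are coloured, the dashed line is the median of 0.21, and the falls reach further (to -6.93 for Fosb) than the rises (to 3.78 for Il2ra).

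Immediate early genes fell, and 5 of them are among the 15 largest falls named. Of 40 tested members of a list of immediate early transcription factors and regulators, 35 were lower at 6 h and 3 higher, against 29.2% lower and 49.5% higher over all genes. At least 2-fold lower were 25 of them, against 9.75% of all genes, and the list's median log2 change was -1.27. Fosb, a component of the AP-1 transcription factor on chr7:19302696-19310051 (GRCm38, minus strand), stood at 156, 227 and 248 FPKM at 1 h and at 0.716, 0.696 and 0.694 FPKM at 6 h. All libraries at 1 h were above 150 FPKM and all at 6 h were below 1 FPKM, the steepest difference in the table (log2 change -6.93 ± 0.13 SE, limma, adjusted p = 8.12e-11). Its partner Fos went from 45.9, 67.6 and 72.6 FPKM to 1.51, 1.77 and 1.05 FPKM (log2 change -4.67).

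Nr4a1, the orphan nuclear receptor used in mice as a reporter of antigen receptor signalling, read 1280.5, 1462 and 1601 FPKM at 1 h. Its libraries at 6 h held 201, 182 and 177 FPKM, 7.75-fold less on average (log2 change -2.94, adjusted p = 6.51e-10). Nr4a2 fell further, from 173, 186 and 211 FPKM to 4.52, 3.77 and 4.76 FPKM. The Egr genes, zinc finger factors induced by ERK, fell less steeply. Egr3 went from 613, 633 and 658 FPKM to 115, 114 and 113 FPKM (log2 change -2.47 ± 0.04). Egr2 went from 669, 760.1 and 661 FPKM to 216, 218 and 202 FPKM, 3.29-fold lower. Atf3 (-4.19) and Klf4 (-4.09) were also among the deepest falls of the list, Junb had a log2 change of -2.32, and the list's values ran from -6.93 to 1.03. Id3, an inhibitor of E proteins, was the list's member with a rise past 2-fold, at 15.04, 13.3 and 13.6 FPKM and then at 26.2, 36.1 and 27.6 FPKM.

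The promoters and gene structures of this list were set beside those of all tested genes, as a description. RefSeq promoters of GRCm38.p6, 250 bases before to 50 bases after the start site, were found for 33 of its 40 coding genes and for 8207 of the 10084 coding genes tested. Matches were searched on both strands. Each gene was counted once, as matching if any of its promoter windows matched, so shares of promoters here and below are shares of genes. Of the 8552 tested genes with a promoter, coding or not, 1726 had several windows. The CArG box, the site of serum response factor, was found in 2 of the 33 (6.06%) and in 1.54% of all, the cAMP response element TGACGTCA in 2 of the 33 (6.06%) and in 3.85% of all, and its core TGACG, which each full element also holds, in 57.6% and 37.7%. A TATAAA box was found in 24.2% of the list's promoters and in 8.4% of all. The genes were also short, with a median span of 5.85 kb and 4 exons, against 18.8 kb and 8 exons over all tested genes. Egr2 (chr10:67537316-67537615, plus strand) and Btg2 (chr1:134079106-134079405, minus strand) are shown as the member of each matching pair with the larger change. The other CArG match, Srf (serum response factor itself), had a log2 change of 0.13 (adjusted p = 0.0497, 0.0605 with the replicate block) that was -0.11 after rescaling, and the other full element was in Maff, an AP-1 related factor, with a log2 change of -1.89. Capitals mark the matched letters, at position -72 from the start site in Egr2 and -166 in Btg2.
Egr2: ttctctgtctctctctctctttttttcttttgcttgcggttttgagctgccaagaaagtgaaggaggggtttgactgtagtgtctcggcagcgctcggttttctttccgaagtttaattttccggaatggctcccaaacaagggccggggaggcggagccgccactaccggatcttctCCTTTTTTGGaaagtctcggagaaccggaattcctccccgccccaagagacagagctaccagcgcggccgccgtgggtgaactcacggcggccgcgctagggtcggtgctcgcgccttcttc
Btg2: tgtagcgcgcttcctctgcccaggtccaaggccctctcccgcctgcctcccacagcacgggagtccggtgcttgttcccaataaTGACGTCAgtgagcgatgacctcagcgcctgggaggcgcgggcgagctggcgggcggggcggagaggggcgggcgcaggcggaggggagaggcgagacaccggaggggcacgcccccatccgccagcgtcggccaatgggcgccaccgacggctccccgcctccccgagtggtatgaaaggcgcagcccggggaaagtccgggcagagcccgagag
Btg2, an antiproliferative adaptor of mRNA deadenylation, was at 186, 224 and 245 FPKM at 1 h and at 54.9, 51.6 and 53.6 FPKM at 6 h.

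Other genes with the deepest falls lay outside that list. Plk2, a stress-responsive polo-like kinase, went from 147, 157 and 174 FPKM to 4.73, 4.95 and 4.45 FPKM (log2 change -4.81). The urokinase receptor gene Plaur went from 217, 212 and 247 FPKM to 12.7, 13.1 and 11.6 FPKM, and the adhesion receptor gene Adgre5 (CD97) from 390.3, 373 and 473 FPKM to 24.9, 24.5 and 27.0 FPKM. In each of these the lowest library at 1 h was more than 10-fold above the highest at 6 h. The T-type calcium channel gene Cacna1i went from 13.6, 14.5 and 18.4 FPKM to 0.119, 0.153 and 0.221 FPKM.

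**Figure D2:**
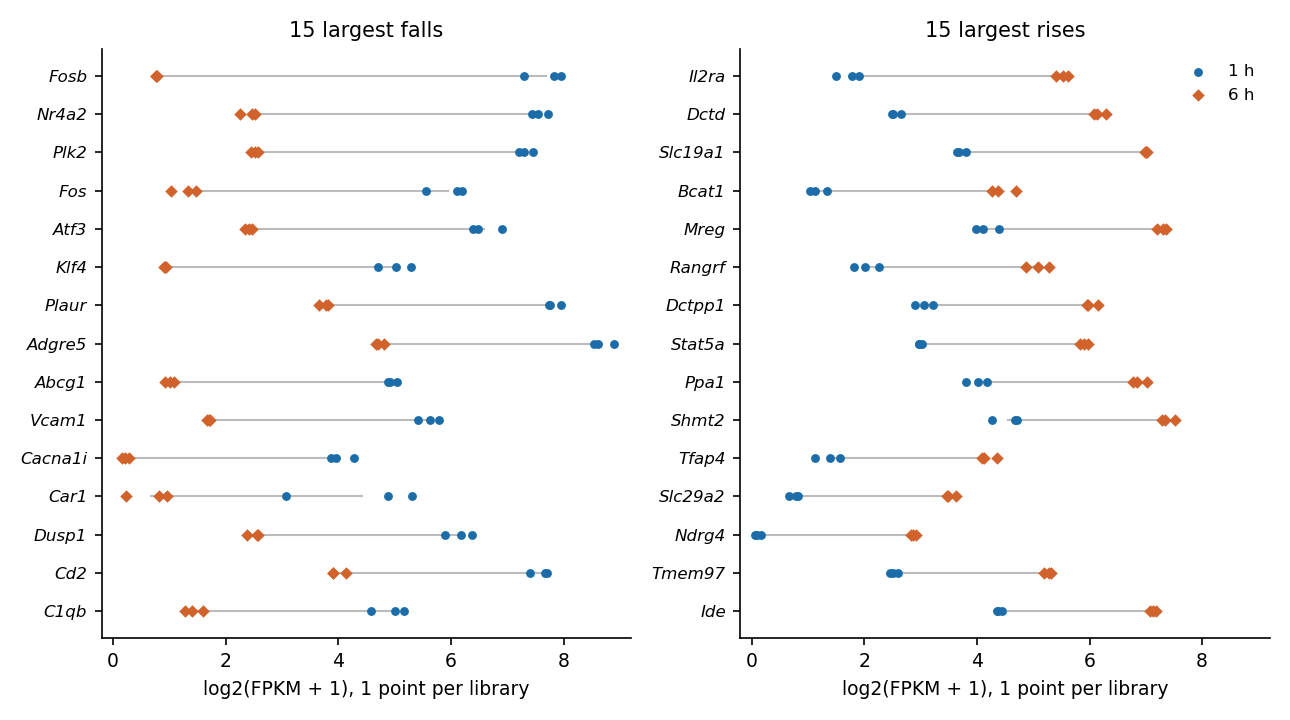
The 15 named genes with the largest falls (left) and rises (right), with log2(FPKM + 1) on the x axis, 1 circle per library at 1 h, 1 diamond per library at 6 h and a grey line between the means. The 30 genes were chosen among those whose libraries do not overlap between the 2 times, and Car1 has the widest spread within a time.

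Negative feedback genes of the ERK pathway were mostly lower as well. Of 13 tested dual-specificity phosphatases, Sprouty and Spred genes, 10 were lower and 2 higher, against 29.2% and 49.5% of all genes. Their median log2 change was -1.06. Dusp1, a nuclear MAP kinase phosphatase, dropped from 58.4, 71.0 and 82.2 FPKM to 4.198, 4.95 and 4.86 FPKM, and Dusp10 and Dusp16, which act on stress kinases, had log2 changes of -2.69 and -2.80. Dusp2 remained at 102, 114 and 97.6 FPKM, after 334, 362 and 377 FPKM at 1 h. Against that direction, Dusp4 rose from 54.6, 57.0 and 57.5 FPKM to 100, 100 and 111 FPKM and Dusp7 had a log2 change of 1.16.

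NF-kB genes split between subunits. In a list of 25 subunits and inhibitors, 13 were lower and 5 higher, against 29.2% and 49.5% of all genes (median log2 change -0.20). Rel, the c-Rel subunit, was at 420.4, 420.4 and 489 FPKM at 1 h and at 195, 151 and 198 FPKM at 6 h (log2 change -1.29, adjusted p = 5.01e-07). Nfkb1, which encodes p105 and p50, moved the other way, from 92.2, 83.2 and 88.6 FPKM to 216, 206 and 224 FPKM (log2 change 1.28, adjusted p = 1.17e-09). The libraries of the 2 times did not overlap for either gene, and at 6 h Nfkb1 stood above Rel where it had stood below it at 1 h. Among the inhibitors, Nfkbid (-1.67), Nfkbiz (-1.34) and the deubiquitinase gene Tnfaip3 (-0.99) fell, and Nfkbie (0.67) and Tnip2 (0.79) rose. A kB site was found in 52.4% of the 21 promoters of this list and in 12.1% of all promoters.

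The receptor's own signalling chain was lower at 6 h. Of 38 genes for proximal kinases, adaptors and coreceptors, 28 were lower and 7 higher, against 29.2% and 49.5% of all genes. At least 2-fold lower were 15 of the 38, against 9.75% of all genes, and the median log2 change was -0.86. Cd79a, the Ig-alpha chain that carries the signal of the receptor, went from 769.8, 849 and 829 FPKM to 215, 219.7 and 198 FPKM, 3.87-fold lower (log2 change -1.95 ± 0.06, adjusted p = 3.97e-10). Its partner chain Cd79b was at 176, 217 and 189.9 FPKM and then at 253, 256 and 240.5 FPKM (log2 change 0.37, adjusted p = 0.000554), a rise that did not pass the test after rescaling (log2 change 0.10). In FPKM, which is per length, Cd79a was above Cd79b in every library at 1 h and below it in every library at 6 h.

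Kinases of the chain moved in opposite directions. Syk, which docks on the phosphorylated chains, was at 228, 203 and 213 FPKM at 1 h and at 42.5, 37.8 and 46.9 FPKM at 6 h (log2 change -2.32). Lyn, the main Src family kinase of resting B cells, fell from 141, 124 and 129 FPKM to 55.8, 51.2 and 57.7 FPKM. Fyn, another Src family kinase, rose from 25.3, 20.2 and 25.4 FPKM to 88.6, 85.8 and 92.2 FPKM (log2 change 1.88, adjusted p = 2.64e-08). Fyn was below Lyn in every library at 1 h and above it in every library at 6 h. The scaffold genes Bank1 (215, 228 and 234 FPKM, then 25.2, 17.9 and 23.2 FPKM) and Themis2 (log2 change -2.62) had the deepest falls of the list.

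Inhibitory receptors fell alongside the activating chain. Of 29 such receptors and phosphatases, 22 were lower and 4 higher, 12 of them at least 2-fold lower (median log2 change -0.79). Cd22, a sialic acid-binding inhibitor of the receptor, went from 169, 211 and 234 FPKM to 41.6, 42.0 and 47.7 FPKM, and Siglecg and Pecam1 had log2 changes of -2.32 and -2.59. Ptprc, which encodes the phosphatase CD45 and is needed to prime Src kinases, went from 455, 447 and 526 FPKM to 161, 149.6 and 175 FPKM. Cd72 differed from these, at 203, 217 and 209.7 FPKM and then 246, 267 and 259 FPKM, a log2 change of 0.29 that fell to 0.03 and failed the test after rescaling. Calcium and NFAT genes were divided, with 10 higher and 12 lower of 26, against 49.5% and 29.2% of all genes. Rcan1, a calcineurin regulator and NFAT target, rose from 4.81, 5.07 and 4.15 FPKM to 16.8, 16.9 and 15.8 FPKM, and Atp2a3, a calcium pump of the endoplasmic reticulum, fell from 109.8, 116 and 127 FPKM to 23.3, 24.2 and 25.7 FPKM.

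**Figure D3:**
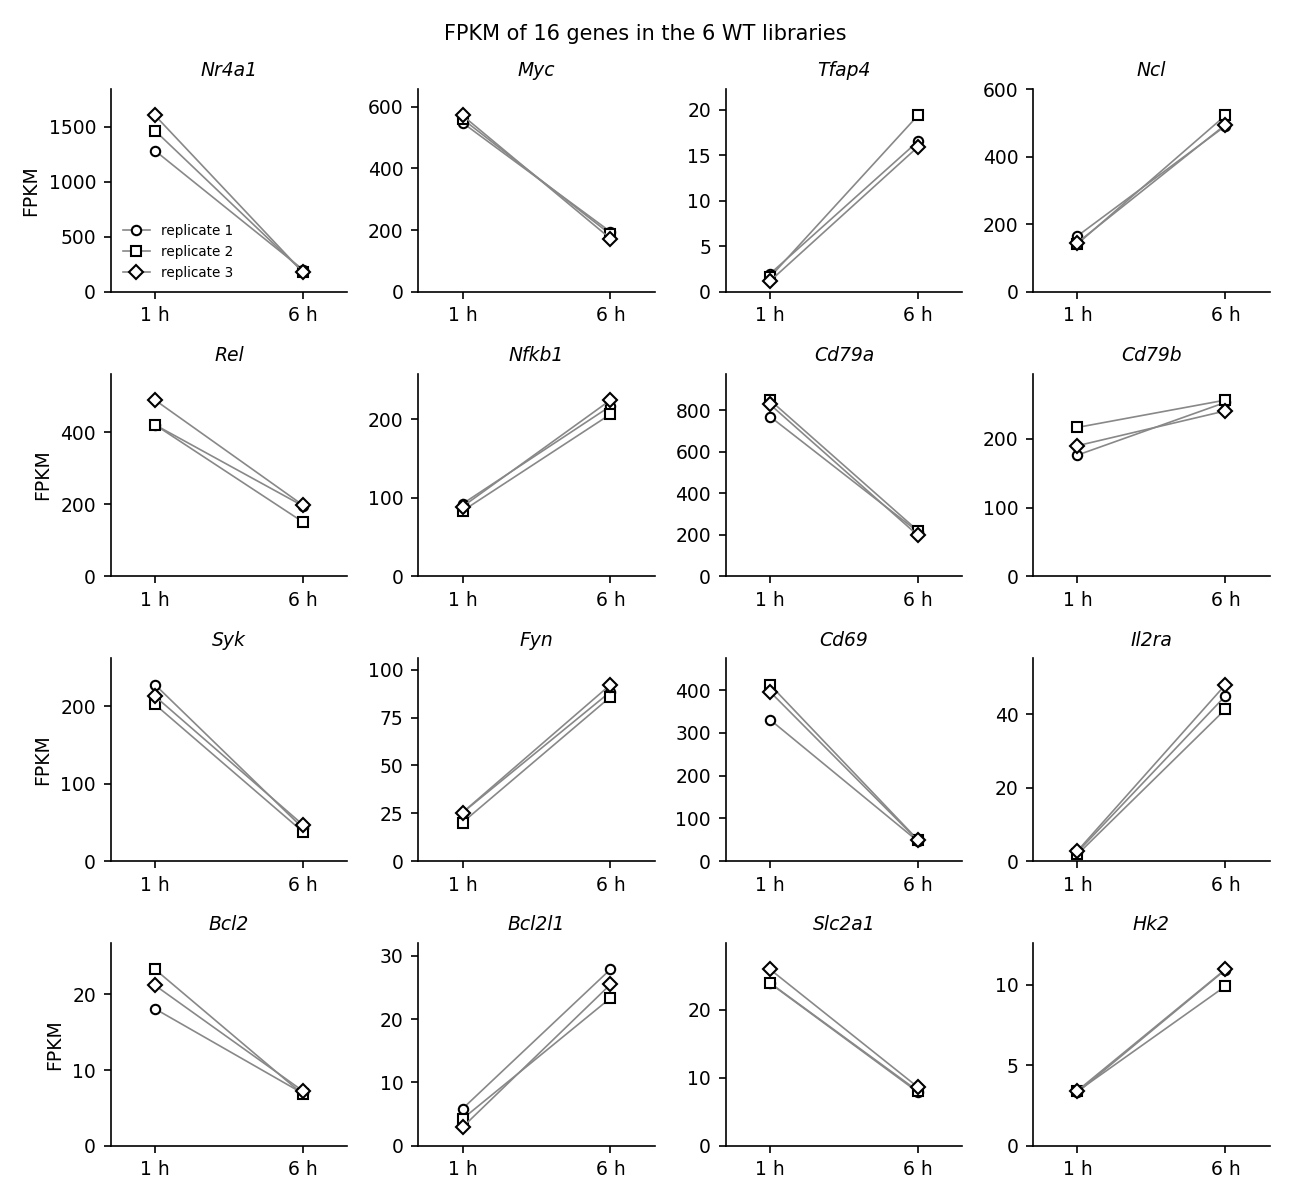
FPKM of 16 genes in each of the 6 WT libraries, with the time on the x axis, a separate y axis from 0 for each gene, and a line joining libraries of equal replicate number. Within each gene all 3 lines go the same way, and the pairs Rel and Nfkb1, Cd79a and Cd79b, Syk and Fyn, and Bcl2 and Bcl2l1 go opposite ways.

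Activation markers of the cell surface were mostly lower at 6 h than at 1 h. Of 26 tested activation and costimulation molecules, 16 were lower and 3 higher, against 29.2% and 49.5% of all genes. Cd69, an early activation antigen that retains lymphocytes in tissue, stood at 331, 413 and 396 FPKM at 1 h and at 46.3, 49.5 and 48.1 FPKM at 6 h (log2 change -2.95, adjusted p = 5.23e-10). Cd83 (690.2, 741 and 782 FPKM, then 373, 385 and 350.3 FPKM) and the costimulatory ligand gene Cd86 (191, 130.3 and 151 FPKM, then 67.9, 57.1 and 72.6 FPKM) also fell without overlap, as did Cd274, which encodes PD-L1 (log2 change -2.35).

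The interleukin 2 receptor alpha chain was the member of that list with a rise past 2-fold, and it had the largest log2 change upwards of the 11841 genes. Il2ra (CD25, chr2:11642807-11693193, plus strand) was at 2.46, 1.81 and 2.76 FPKM at 1 h and at 44.97, 41.3 and 48.0 FPKM at 6 h, 19.1-fold higher (log2 change 3.78 ± 0.11 SE, adjusted p = 3.97e-10). Stat5a, a transcription factor activated through that receptor, rose from 6.88, 7.12 and 6.80 FPKM to 61.7, 58.6 and 56.2 FPKM, 8.48-fold, and Il15ra from 1.73, 2.09 and 1.65 FPKM to 8.67, 7.65 and 11.4 FPKM. Every library at 6 h was more than 3-fold above every library at 1 h for these genes. As a whole, the list of cytokine receptors, STATs and SOCS proteins leaned the other way. In it 18 were lower and 12 higher of 34, against 29.2% and 49.5% of all genes. Il4ra went from 65.0, 66.4 and 77.0 FPKM to 16.3, 16.9 and 17.5 FPKM, Il10ra had a log2 change of -2.40, and the cytokine signalling inhibitor gene Socs3 fell from 16.3, 16.5 and 18 FPKM to 1.31, 1.09 and 1.26 FPKM.

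Secreted signals and homing receptors followed. Of 21 tested chemokines and cytokines, 12 were lower and 5 higher, against 29.2% and 49.5% of all genes. The inflammatory chemokine genes Ccl3 and Ccl4 were at 102, 96.3 and 90.5 FPKM and at 104, 109.9 and 101 FPKM at 1 h, and at 21.9, 20.6 and 16.7 FPKM and 28.0, 33.1 and 21.5 FPKM at 6 h. Il10 fell from 9.40, 10.2 and 9.39 FPKM to 1.74, 2.36 and 1.65 FPKM, and Ccl22, which attracts CCR4-bearing T cells, rose from 0.593, 0.351 and 0.406 FPKM to 2.23, 2.11 and 3.08 FPKM. Of 26 homing and sphingosine receptor genes, 19 were lower and 4 higher (median log2 change -0.96). Itgb7, an integrin chain of gut homing, had a log2 change of -2.83, and the chemokine receptor gene Cxcr4 (-1.54), the oxysterol receptor gene Gpr183 (-1.74) and the egress receptor gene S1pr1 (-1.24) fell as well. Ccr6, whose ligand is CCL20, rose from 172, 136 and 145 FPKM to 291, 232 and 293 FPKM. Tnfrsf13c, the receptor for the survival factor BAFF, rose from 109.8, 119 and 119 FPKM to 177, 204 and 179 FPKM.

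B lineage and plasma cell transcription factors were more often lower than higher. Of 33 such factors tested, 20 were lower and 10 higher, against 29.2% and 49.5% of all genes (median log2 change -0.48). Ets1, which restrains plasma cell differentiation, went from 712, 699 and 789 FPKM to 128, 115 and 137 FPKM (log2 change -2.52, adjusted p = 3.39e-10), and Pax5, which maintains B cell identity, from 119, 124 and 141 FPKM to 35.7, 34.6 and 39.6 FPKM. Irf4 (530.0, 505 and 579 FPKM, then 318, 305 and 327 FPKM) and Prdm1 (46.0, 48.0 and 45.3 FPKM, then 19.6, 22.1 and 19.4 FPKM), both needed for plasma cells, were lower at 6 h too. Batf, an AP-1 family factor that partners IRF4, was the list's member with a rise past 2-fold, from 7.08, 7.39 and 7.43 FPKM to 28.2, 31.2 and 24.0 FPKM, and Irf8 rose from 152, 159.9 and 161 FPKM to 260.1, 288 and 275 FPKM. Among 38 FOXO and quiescence genes 29 were lower and 5 higher, 16 of them at least 2-fold lower. Klf2, a factor that keeps lymphocytes quiescent, went from 98.1, 106 and 109.7 FPKM to 10.6, 9.88 and 9.97 FPKM. Tsc22d3 (GILZ), a FOXO and glucocorticoid target, had a log2 change of -2.78, the antiproliferative gene Btg1 of -1.40 and Foxo1 of -1.67.

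Antigen presentation by MHC class II fell at the level of RNA. Of 18 tested genes 15 were lower and 1 higher, against 29.2% and 49.5% of all genes, with a median log2 change of -1.13. H2-Aa, the alpha chain of I-A, was at 3854, 4087 and 4348 FPKM at 1 h and at 1694, 1967 and 1578 FPKM at 6 h, and the invariant chain gene Cd74 at 3936, 4257 and 4172 FPKM and then 1837, 2119 and 1634 FPKM. The peptide-loading genes fell more deeply, with H2-DMb2 at 355, 389 and 349 FPKM and then at 83.8, 98.1 and 78.2 FPKM, and H2-Oa at a log2 change of -2.29. Ciita, the master activator of these genes, fell less (log2 change -0.53, adjusted p = 0.00169). The 6 genes for class II chains, Cd74 included, took 1.46%, 1.56% and 1.60% of all fragments at 1 h and 0.658%, 0.778% and 0.611% at 6 h. The summed FPKM of 20 macrophage markers fell over the same time, from between 517 and 680 to between 155 and 250, and its part in the class II result was not tested.

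Myc itself was lower at 6 h, and its network was divided. Myc was at 548, 560.0 and 571 FPKM at 1 h and at 195, 186 and 172 FPKM at 6 h, 3.04-fold lower (log2 change -1.60 ± 0.07, adjusted p = 5.36e-09). Tfap4, a factor that MYC induces in activated lymphocytes, rose from 1.97, 1.62 and 1.18 FPKM to 16.6, 19.4 and 15.9 FPKM (log2 change 2.83), and Mxd1, which competes with MYC for MAX, fell from 16.4, 14.95 and 15.4 FPKM to 2.77, 2.91 and 2.13 FPKM. Of the 11 tested members of the network 6 were lower and 4 higher, against 29.2% and 49.5% of all genes.

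Genes that build ribosomes rose nearly without exception. Of 101 ribosome biogenesis and nucleolar genes, 98 were higher and 2 lower, against 49.5% and 29.2% of all genes, and 73 were at least 2-fold higher against 15.1%. Their median log2 change was 1.27 against 0.21 for all genes, and after rescaling it was 1.02 with 90 higher and 4 lower. Ncl (nucleolin) went from 165, 142 and 146 FPKM to 491, 522 and 495 FPKM and Npm1 (nucleophosmin) from 485, 456 and 419 FPKM to 1404, 1356 and 1333 FPKM. Nat10, the acetyltransferase of ribosomal RNA, went from 14.2, 14.5 and 13.4 FPKM to 58.2, 60.6 and 61.1 FPKM, 4.27-fold higher (log2 change 2.02 ± 0.04, adjusted p = 8.12e-11). RNA polymerase I and III subunit genes were higher in 29 of 33 cases and lower in 3. Polr1b, a large subunit of polymerase I, rose from 14.4, 11.4 and 10.1 FPKM to 59.6, 56.7 and 58.3 FPKM, and Polr3g from 3.38, 3.08 and 3.16 FPKM to 22.3, 22.9 and 24.5 FPKM.

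The canonical E-box CACGTG, the letters that MYC and MAX bind, was searched on both strands of the same promoters, and a match describes the letters and not a bound site. It was found in 30 of 112 promoters (26.8%) of genes at least 4-fold higher and in 18 of 84 (21.4%) of the ribosome biogenesis list, against 12.3% of the 8207 promoters of all tested coding genes. It was also found in 7 of the 33 promoters (21.2%) of the immediate early list, which fell. Wdr46 (chr17:33940473-33940772) and Nop2 (chr6:125131633-125131932), both on the plus strand, are shown as members of the ribosome list with large rises, with the E-box in capitals at positions -12 and -60 from the start site.
Wdr46: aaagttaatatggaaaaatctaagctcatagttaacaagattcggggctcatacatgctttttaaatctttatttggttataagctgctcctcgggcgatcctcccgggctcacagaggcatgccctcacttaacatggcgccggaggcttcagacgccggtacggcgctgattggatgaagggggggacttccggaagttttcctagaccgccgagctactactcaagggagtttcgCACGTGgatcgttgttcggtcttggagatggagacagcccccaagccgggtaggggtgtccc
Nop2: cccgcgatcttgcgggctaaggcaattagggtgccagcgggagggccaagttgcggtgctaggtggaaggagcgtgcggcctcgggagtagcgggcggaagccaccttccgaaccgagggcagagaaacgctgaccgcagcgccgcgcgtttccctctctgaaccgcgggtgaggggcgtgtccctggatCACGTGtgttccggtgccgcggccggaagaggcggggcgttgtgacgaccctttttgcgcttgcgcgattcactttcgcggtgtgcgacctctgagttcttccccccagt
Wdr46, a component of the processome that matures small subunit RNA, was at 9.98, 10.2 and 9.06 FPKM at 1 h and at 55.1, 60.1 and 55.6 FPKM at 6 h. Nop2, a methyltransferase of large subunit RNA, was at 20.5, 17.4 and 16.5 FPKM and then at 80.4, 87.9 and 81.4 FPKM.

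Genes for the proteins of the ribosome itself changed little. Of 79 cytosolic ribosomal protein genes 46 were higher and 3 lower, against 49.5% and 29.2% of all genes, with a median log2 change of 0.27. After rescaling 17 were higher and 15 lower with a median of 0.01. Rps2 stood out among them, at 1018, 1017 and 906 FPKM and then at 1944, 2164 and 1870.3 FPKM (log2 change 1.02), and Rps27 went the other way, from 2886, 2934 and 2846 FPKM to 2028, 2122 and 1790.2 FPKM. Many of these genes have near-identical processed copies, so their values carry the authors' treatment of shared reads. The mitochondrial ribosome rose as a whole, with 75 of 77 genes higher, none lower and a median log2 change of 0.99.

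Genes of the wider translation machinery rose too. All 22 tested cytosolic aminoacyl-tRNA synthetase genes were higher, 19 of them at least 2-fold, with a median log2 change of 1.53, the highest of the 45 pathway lists; after rescaling 21 were. Iars, the isoleucine enzyme, went from 23.0, 21.6 and 21.9 FPKM to 94.6, 89.0 and 91.4 FPKM (log2 change 2.00 ± 0.04) and Mars, the methionine enzyme, from 16.2, 15.5 and 13.8 FPKM to 62.3, 67.6 and 62.5 FPKM. Of 48 translation factors 42 were higher and 4 lower. Eif2b3, a subunit of the exchange factor for eIF2, rose from 6.48, 6.91 and 6.75 FPKM to 37.8, 41.0 and 38.9 FPKM. Of 25 amino acid transporters 12 were higher and 8 lower, close to the 49.5% and 29.2% of all genes, and the 10 that passed 2-fold were higher. Slc1a4, a carrier of serine and alanine, rose from 0.434, 0.331 and 0.331 FPKM to 5.33, 5.92 and 4.72 FPKM, and Slc7a5, the catalytic chain of the leucine transporter, from 17.6, 14.3 and 12 FPKM to 47.7, 49.9 and 45.4 FPKM.

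**Figure D4:**
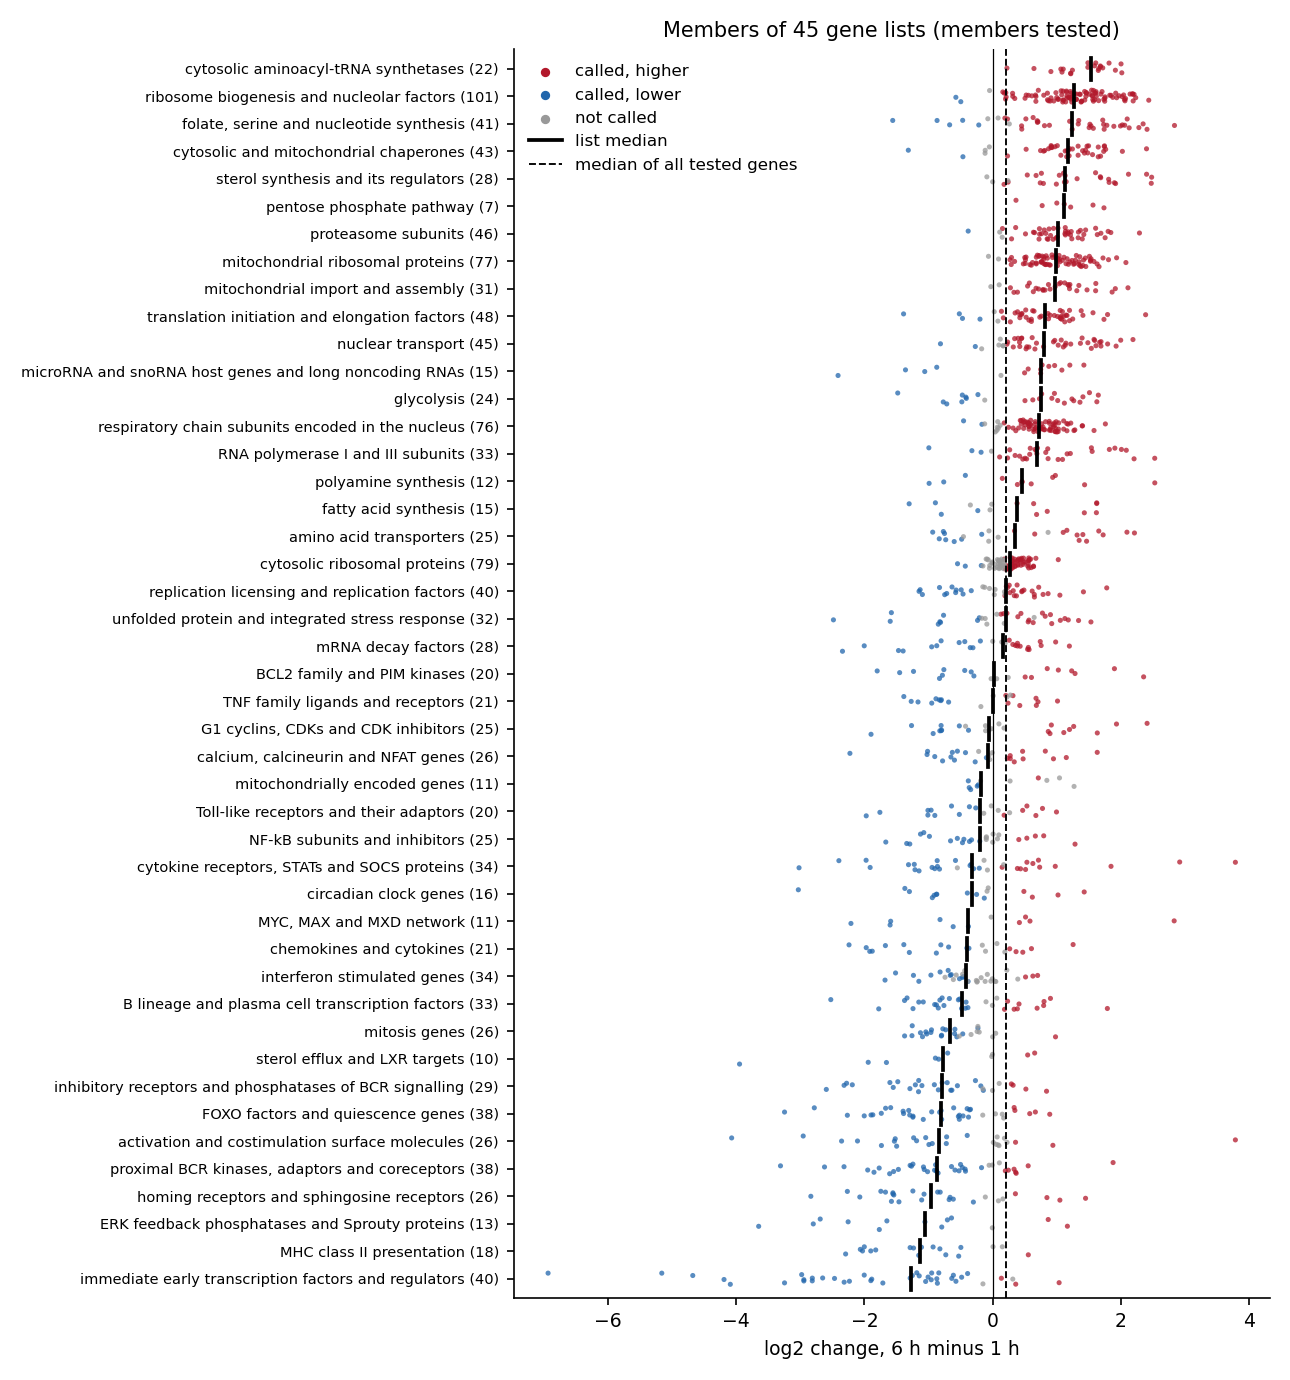
Log2 change from 1 h to 6 h (x axis) of every tested member of 45 gene lists (rows, with the number tested), red where called higher, blue where called lower and grey where not called. The black bar is the list's median and the dashed line the median of all genes, 0.21; medians run from -1.27 for immediate early regulators to 1.53 for tRNA synthetases.

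Nucleotide and one-carbon metabolism supplied several of the largest rises. Of 41 folate, serine and nucleotide synthesis genes, 33 were higher and 5 lower, against 49.5% and 29.2% of all genes. At least 2-fold higher were 22 of the 41, against 15.1% of all genes (median log2 change 1.24). Dctd, a deaminase that feeds thymidylate synthesis, went from 4.73, 4.63 and 5.25 FPKM to 66.5, 77.4 and 69.1 FPKM (log2 change 3.62, adjusted p = 1.66e-09). Slc19a1, the reduced folate carrier, went from 11.8, 13.0 and 11.5 FPKM to 128, 129 and 126 FPKM, 10.5-fold higher. Shmt2, the mitochondrial serine hydroxymethyltransferase, rose from 25.1, 24.6 and 18.2 FPKM to 160.2, 183 and 155 FPKM. Also higher were Mthfd2 (log2 change 2.06), the purine synthesis gene Gart (2.34), the pyrimidine synthesis gene Cad (2.28), the nucleoside transporter gene Slc29a2 (2.77) and the pyrophosphatase gene Dctpp1 (2.96). Rrm2, the S phase subunit of ribonucleotide reductase, did not follow, at 25.5, 22.8 and 9.01 FPKM at 1 h and 6.20, 6.77 and 3.44 FPKM at 6 h (log2 change -1.56, adjusted p = 0.00386). The library numbered 3 was its lowest at both times, and the part of other dividing cells in its values was not tested.

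Of 24 glycolysis genes 15 were higher and 8 lower, against 49.5% and 29.2% of all genes, and all 7 pentose phosphate genes were higher, 6 of them after rescaling. Hk2, the inducible hexokinase, rose from 3.32, 3.38 and 3.42 FPKM to 10.9, 9.91 and 10.96 FPKM and Ldha, lactate dehydrogenase A, from 274, 254 and 235 FPKM to 782, 847 and 730.2 FPKM. Among the 8 that were lower, the glucose transporter gene Slc2a1 fell from 23.9, 23.9 and 25.9 FPKM to 7.86, 8.04 and 8.597 FPKM (log2 change -1.48). Tkt, the transketolase of the pentose phosphate pathway, rose from 38.4, 38.7 and 36.4 FPKM to 126, 140.4 and 118 FPKM. Bcat1, which transfers the amino group of branched-chain amino acids, rose from 1.54, 1.06 and 1.19 FPKM to 19.7, 24.9 and 18.2 FPKM, and Srm, spermidine synthase, from 21.7, 18.8 and 14.3 FPKM to 108, 118 and 100.2 FPKM.

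Sterol synthesis and sterol export moved apart. Of 28 genes of sterol synthesis and its regulators, 25 were higher and none lower, against 49.5% and 29.2% of all genes. At least 2-fold higher were 17 of the 28 (median log2 change 1.12), and after rescaling 23 were higher and 2 lower. Sqle, squalene epoxidase, went from 7.43, 8.68 and 10.1 FPKM to 55.1, 52.4 and 51.3 FPKM (log2 change 2.48, adjusted p = 3.55e-09) and Fdft1, squalene synthase, from 2.89, 3.07 and 3.19 FPKM to 21.4, 22.6 and 20.4 FPKM. Idi1 (2.40), Hmgcs1 (1.68) and Tmem97 (2.74), whose product binds sterols in the endoplasmic reticulum, rose as well, and their activator Srebf2 had a log2 change of 1.04. On the export side, the sterol exporter gene Abcg1 went from 28.6, 31.9 and 29.2 FPKM to 1.02, 1.11 and 0.893 FPKM, 29.7-fold lower (log2 change -3.94). Abca1 fell from 35.2, 30.2 and 28.6 FPKM to 8.13, 6.19 and 8.01 FPKM, and Mylip, a ubiquitin ligase, had a log2 change of -1.66. These 3 genes are targets of the sterol-sensing LXR receptors, and of the 10 members of that list 6 were lower and 2 higher. Fasn, fatty acid synthase, rose from 11.2, 10.6 and 11.4 FPKM to 36.2, 34.5 and 37.3 FPKM.

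Genes for mitochondrial and protein quality control systems rose broadly. Of 76 respiratory chain subunits encoded in the nucleus 67 were higher and 2 lower, of 31 import and assembly genes 29 were higher and none lower, of 46 proteasome genes 43 were higher and 1 lower, and of 43 chaperones 38 were higher and 2 lower. Genes encoded in the mitochondrion did not follow their nuclear partners, with 5 of 11 lower and 1 higher. mt-Co1, a subunit of complex IV, was at 9188, 9279 and 8972 FPKM and then at 7608, 6682 and 7374 FPKM (log2 change -0.34, adjusted p = 0.0011), and it did not pass the test in the fit without a filter on low genes (adjusted p = 0.227). Hspd1, the mitochondrial chaperonin, went from 109, 75.8 and 67.8 FPKM to 430.1, 459 and 426 FPKM, Tomm40, the import channel of the outer membrane, from 18.8, 18.8 and 17.6 FPKM to 69.5, 81.4 and 65.8 FPKM, and the proteasome assembly gene Psmg1 had a log2 change of 2.29. Hspa8, the constitutive HSC70, was one of the most abundant transcripts of the cell, at 3346, 2549 and 2309.6 FPKM and then at 8909, 8643 and 8445 FPKM. Of 32 unfolded protein and integrated stress response genes 17 were higher and 9 lower, close to the 49.5% and 29.2% of all genes, and after rescaling 11 were higher and 12 lower. Ppp1r15a (GADD34), which restores translation after stress, fell from 714, 763 and 698 FPKM to 153, 138 and 102 FPKM.

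The survival genes Bcl2 and Bcl2l1 exchanged places. Bcl2 went from 18.1, 23.3 and 21.2 FPKM to 6.90, 6.78 and 7.22 FPKM (log2 change -1.45, adjusted p = 1.11e-07), and Bcl2l1, which encodes BCL-XL, from 5.84, 4.23 and 2.92 FPKM to 27.9, 23.3 and 25.5 FPKM (log2 change 2.35, adjusted p = 1.81e-07). Bcl2 was above Bcl2l1 in every library at 1 h and below it in every library at 6 h. Bcl2a1d, another member of the family, was above both in every library. It went from 55.8, 54.15 and 57.3 FPKM to 125.3, 107.5 and 110.9 FPKM (log2 change 1.02). Among the pro-apoptotic genes, Bid (log2 change 1.90) and Bax (1.28) rose and Pmaip1 (NOXA, -1.80) fell, and the kinase gene Pim1, which favours survival, had a log2 change of -1.23. In all, 8 of 20 tested genes of the BCL2 family and the PIM kinases were higher and 9 lower. Over all genes 49.5% were higher and 29.2% lower. With a minimum fold of 1.5 (limma treat) the list's balance turned to 6 higher and 4 lower.

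Cell cycle genes are given by phase, with no test between phases. Of 25 G1 genes 9 were higher and 9 lower, against 49.5% and 29.2% of all genes. Cdk4 rose from 33.9, 35.1 and 30.8 FPKM to 128, 141 and 119 FPKM and Cdk6 from 5.35, 5.50 and 5.79 FPKM to 18.8, 17.8 and 21.4 FPKM, both kinases of early G1, while their cyclin Ccnd3 fell from 30.8, 27.3 and 21.1 FPKM to 12.9, 13.9 and 12.9 FPKM. E2f6, a repressor of the E2F family, rose from 3.31, 3.22 and 2.75 FPKM to 19.8, 21.8 and 20.3 FPKM. Of 40 replication genes 21 were higher and 12 lower, shares close to those of all genes, and the balance turned after rescaling to 12 higher and 16 lower, and the licensing factor gene Cdt1 fell (log2 change -1.10). Mitosis genes were lower in 18 of 26 cases and higher in 1. Mki67, the proliferation antigen, was at 29.4, 22.9 and 10.9 FPKM at 1 h and at 8.49, 6.71 and 5.78 FPKM at 6 h, and Top2a had a log2 change of -1.13. The library numbered 3 was the lowest for Mki67 at both times, and it was also the lowest in the summed FPKM of erythroid markers (587 against 2077 and 2180.4 at 1 h), so the part of other dividing cells in these values was not tested.

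Of 15 microRNA and snoRNA host genes and long noncoding RNAs, 10 were higher and 4 lower, against 49.5% and 29.2% of all genes. The host gene of miR-155, Mir155hg, rose from 85.2, 88.3 and 94.5 FPKM to 151, 146 and 154 FPKM and that of the miR-17 to miR-92 cluster, Mir17hg, from 38.6, 33.1 and 30.7 FPKM to 56.8, 59.2 and 57.2 FPKM, while Mir22hg fell from 55.8, 55.2 and 59.7 FPKM to 11.2, 10.3 and 8.34 FPKM. Gas5, a snoRNA host gene that is degraded during translation, rose from 461, 467 and 423 FPKM to 937, 1017 and 903 FPKM. Zfp36, which destabilises transcripts with AU-rich elements, went from 227, 260.4 and 258 FPKM to 46.3, 48.1 and 50.05 FPKM. Its list of mRNA decay factors had 13 higher and 12 lower of 28, which turned to 10 and 13 after rescaling. Per1, a clock gene that also responds to cAMP signals, fell from 148, 146 and 178 FPKM to 18.5, 18.4 and 18.04 FPKM. Interferon stimulated genes had the largest share of uncalled members of the 45 pathway lists, with 18 of 34 not called, 13 lower and 3 higher.

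Some genes crossed from near silence to clear expression or back. Under 0.5 FPKM in all 3 libraries of one time and at 2 FPKM or more in all 3 of the other, 22 genes were switched on and 47 switched off. Those switched off include Cacna1i and also the macrophage markers Cd163 and Mrc1. The part of cells other than B cells in that count was not tested. Ndrg4, a member of the NDRG family of hydrolase-like proteins, had the largest relative rise of the called genes, from 0.0471, 0.117 and 0.0645 FPKM to 6.15, 6.52 and 6.26 FPKM, 82.7-fold between means that at 1 h lay near the value of 3 fragments. Nefh, the heavy neurofilament gene, went from 0.487, 0.468 and 0.363 FPKM to 5.33, 6.30 and 4.64 FPKM. Other large rises were those of Mreg (20.0, 14.8 and 16.2 FPKM, then 157, 163 and 145 FPKM), Rangrf (log2 change 3.05), the inorganic pyrophosphatase gene Ppa1 (2.88) and the insulin-degrading enzyme gene Ide (2.74). Mreg, melanoregulin, is known from organelle transport.

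The genes at the extremes redistributed a small share of the sequenced fragments. The 216 of the 220 genes at least 4-fold lower whose fragments could be recovered took 4.51%, 4.71% and 5.16% of all fragments at 1 h and 0.755%, 0.710% and 0.772% at 6 h. Those at least 4-fold higher took 0.384%, 0.353% and 0.335% at 1 h and 1.88%, 1.93% and 1.89% at 6 h. The 50 genes with the most fragments at 1 h held 14.3% to 14.98% then and 10.3%, 10.2% and 10.2% later. The 4-fold sets were chosen by their change, so the direction of their shift was fixed. Choosing the 50 by their level at 1 h also favours a lower share at 6 h, and no set ranked at 6 h was taken. Among abundant transcripts, Serbp1, which binds ribosomes, went from 1194, 1108 and 1026 FPKM to 2957, 3069 and 2980.0 FPKM and Ptma (prothymosin alpha) had a log2 change of 1.04. Eef1a1, elongation factor 1A, at 9139, 8755 and 8428 FPKM and then 11773, 11896 and 10757 FPKM, had a log2 change of 0.39 that did not pass the test after rescaling.

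Markers of B cell subsets differed between lists. Over all genes 29.2% were lower and 49.5% higher. Of 8 follicular markers 6 were lower and none higher, among them Fcer2a (CD23, 165, 223 and 245 FPKM, then 48.9, 41.5 and 53.0 FPKM), Cr2 (log2 change -1.54) and Cd55 (-2.06). Of 15 marginal zone markers 10 were lower and 2 higher, and of 9 germinal center markers 6 were lower and none higher. Of 9 B-1 markers 4 were lower and 2 higher (median log2 change -0.09), of 12 plasma cell markers 6 were lower and 2 higher, and of 5 transitional markers 3 were lower and 1 higher.

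Transcripts of other cells were measurable and mostly lower at 6 h. Of 19 tested monocyte and macrophage markers 16 were lower, all at least 2-fold, and none higher (median log2 change -1.61). Over all genes the shares were 29.2% lower and 49.5% higher. The complement gene C1qb went from 31.3, 34.7 and 22.8 FPKM to 1.64, 2.05 and 1.42 FPKM, the scavenger receptor gene Cd163 from 4.30, 3.78 and 4.04 FPKM to 0.0659, 0.103 and 0.142 FPKM, and the mannose receptor gene Mrc1 from 11.7, 10.98 and 10.5 FPKM to 0.351, 0.482 and 0.496 FPKM. Vcam1 (54.2, 48.4 and 41.5 FPKM, then 2.24, 2.29 and 2.20 FPKM), a marker of spleen macrophages and stroma, is among the 15 largest falls, so part of the deepest falls lay in genes that mark cells other than B cells. Of 13 T cell markers 8 were lower and 1 higher, with a summed FPKM of 275 to 314 at 1 h and 95.6 to 103 at 6 h. At 1 h most of that sum was Cd2 (168, 207 and 201 FPKM, then 14.1, 16.6 and 14.0 FPKM), which mouse B cells also express.

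Neutrophil and red cell transcripts differed widely between replicates. The summed FPKM of 14 neutrophil markers was 918, 468 and 63.5 at 1 h and 415, 297 and 20.0 at 6 h, with 1 of 11 tested markers lower and 10 not called. For 14 erythroid markers the sums were 2180.4, 2077 and 587 at 1 h and 833, 822 and 411 at 6 h, with 4 of 13 lower and 1 higher. That share of lower markers was close to the 29.2% of all genes. Car1, a carbonic anhydrase of red cells, was at 38.6, 28.7 and 7.37 FPKM at 1 h and at 0.932, 0.761 and 0.174 FPKM at 6 h. The library numbered 3 was the lowest at both times in each of these. Without both libraries numbered 3 the counts were 9066 genes called, 5671 higher and 3395 lower. That setting keeps the libraries with the higher sums, so it cannot measure the part of these cells. The part of these cells in the results above was not tested.

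**Figure D5:**
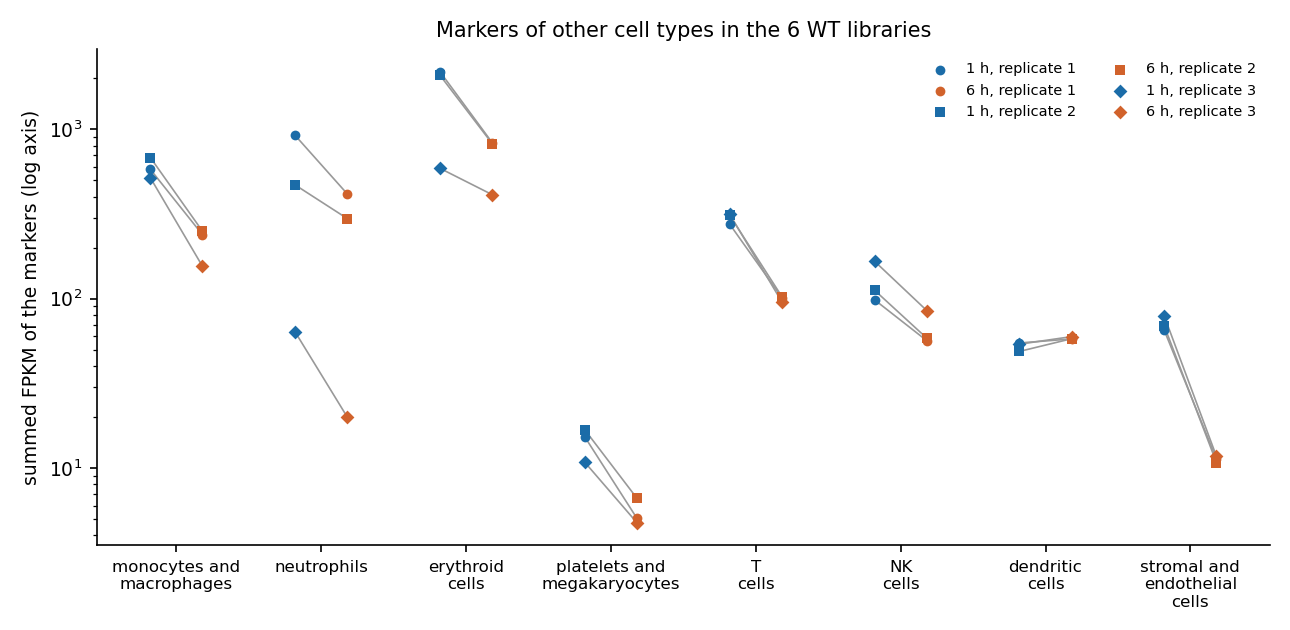
Summed FPKM (log y axis) of the markers of 8 other cell types in the 6 WT libraries, blue at 1 h and orange at 6 h, with a line joining equal replicate numbers. Sums fall from 1 h to 6 h in 7 of the 8 types, and replicate 3 lies far below the others for neutrophils. Most of the stromal and endothelial sum (64.9, 68.8 and 78.8, then 11.3, 10.8 and 11.7) is Pecam1, listed above with the inhibitory receptors. Pecam1 stood at 63.8, 67.7 and 78.2 FPKM and then at 10.7, 10.2 and 11.2 FPKM.

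The change over time was tested for a difference between WT and KO cells in the same model. It differed for 3 genes (0.0253% of those tested) at an adjusted p under 0.05, and for 537 (4.54%) at an unadjusted p under 0.05. In KO cells 9292 genes (78.5%) changed over the same hours, with a median log2 change of 0.22. Map3k19 fell in WT cells from 5.82, 7.06 and 5.95 FPKM to 0.299, 0.221 and 0.109 FPKM (log2 change -2.59), and in KO cells it was already at 0.045 to 0.129 FPKM at 1 h. The gene lies on chr1:127815253-127855031, the same chromosome as the targeted gene Fcmr (chr1:130865669-130880791). Any part of this position in the difference was not tested. Nebl and Dph5 are the other two, with values given in the closing section.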

How the data were processed

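The deposited table holds FPKM per gene for 12 libraries, computed by the authors from their reads. Reads were aligned with STAR to mm10 and counted with HTSeq, per the submitters' processing notes; versions, gene lengths and the treatment of shared reads are not given in the sources used here. Symbols and positions came from GENCODE for 55141 of 55487 gene IDs. Steps of FPKM gave whole fragments (within 0.001) for 99.01% of tested genes, which gave the depth and an added voom alternative on recovered fragments. The floors cover counting error only, and the ± values are limma standard errors, from the spread between libraries.

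The test was limma 3.58.1 with a variance trend (R 4.3.3) on log2(FPKM + 1), a scale that understates the change of low genes. It fitted all 12 libraries as 4 groups of 3, so that they share 1 estimate of the spread, took the WT contrast and adjusted p by Benjamini-Hochberg over the 11841 genes averaging 1 FPKM or more, called at 0.05. Tables and figures used python 3.11.15, numpy 2.4.6, pandas 2.3.3, scipy 1.17.1 and matplotlib 3.10.9. In simulated data for this comparison on 11724 genes, 94% of 50 genes changed 2-fold and 78% of 50 changed 1.5-fold were recovered. The simulation changed few genes, where 78.7% were called in the data. It also gave every gene the same set spread between libraries, not one estimated here. Its rates therefore need not hold for the real libraries. Replicates are called biological in the labels, and where they share a preparation the p-values measure only the spread between these samples.

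Same-numbered WT libraries deviated together from their group means (r of 0.338 to 0.547 across genes, KO 0.365 to 0.476, different numbers -0.368 to 0.017). Deviations within a group cancel out, so the values for different numbers are not independent of the others. The labels do not say what equal numbers share, and a fit with the replicate number as a block was an alternative. Other alternatives changed the pseudocount, filter, scaling, libraries in the fit, trend and minimum fold, and left out each WT library. Named genes were the 15 largest rises and falls without overlap and with proper symbols, the 6 members of each list with the smallest p, the 10 most abundant called genes in each direction, switched genes and genes of printed promoters. Members and lists were chosen with earlier results of these data known, and 34 further genes are named that were chosen after their values were seen. A few genes are not reported here.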

Additional observations from a re-analysis of the deposited data

Results flagged for a closer look

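The change from 1 h to 6 h differed between WT and KO cells, by a test of the difference itself, for 3 genes. Map3k19, a MAP kinase kinase kinase, had a KO change minus WT change of 2.49 on the log2 scale (SE 0.14, limma, adjusted p = 3.3e-05). It fell in WT cells by 2.59 and was at 0.045, 0.129 and 0.075 FPKM at 1 h and 0.008, 0 and 0.034 FPKM at 6 h in KO cells. The difference held under the replicate block (adjusted p = 0.0071) and was lost with a pseudocount of 0.1 (adjusted p = 0.0923).

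Nebl, which encodes the actin-binding protein nebulette, had a difference of 0.82 (SE 0.08, limma, adjusted p = 0.0074). Its WT libraries held 7.63, 7.93 and 7.78 FPKM at 1 h and 0.360, 0.354 and 0.281 FPKM at 6 h, and its KO libraries 3.90, 3.95 and 3.82 FPKM and then 0.288, 0.296 and 0.346 FPKM. The genotypes were apart at 1 h and overlapped at 6 h. The call was lost under the replicate block (adjusted p = 0.207), with a pseudocount of 0.1 (0.373), with voom (0.214), under treat (1), without WT 1 h replicate 2 (0.0627) or replicate 3 (0.0522), and without both WT libraries numbered 3 (0.156).

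Dph5, an enzyme of diphthamide synthesis on elongation factor 2, had a difference of 0.50 (SE 0.06, limma, adjusted p = 0.0359). It rose in WT cells from 31.9, 29.7 and 29.7 FPKM to 44.2, 45.8 and 46.5 FPKM and in KO cells from 20.0, 20.0 and 21.3 FPKM to 44.1, 45.1 and 42.2 FPKM. The call was lost under the replicate block (adjusted p = 0.269) and without any 1 WT library (adjusted p from 0.0688 to 0.137). It was also lost with the filter raised to 5 FPKM (0.0769), with no variance trend (0.0865), with a pseudocount of 0.1 (0.0923), with voom (0.0676), under treat (adjusted p = 1) and without both WT libraries numbered 3 (0.17).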

How the results depend on the processing

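Counts over all genes kept their size within 1.5 times under every alternative except a minimum fold of 1.5 (limma treat), which left 4148 genes, 2686 higher and 1462 lower. The genes at least 4-fold higher numbered 72 after median-of-ratios rescaling, 348 and 223 with pseudocounts of 0.1 and 0.5 and 378 with voom on recovered fragments, and those at least 4-fold lower 421 with a pseudocount of 0.1 and 441 with voom. Genes whose change differed between genotypes numbered 0 at a mean of at least 5 FPKM, with a pseudocount of 0.1 and with voom. Map3k19 was not in the fits at 5 FPKM and with voom, nor Nebl in that at 5 FPKM, so they were not tested there. Such genes numbered 21 without a filter. They numbered 1 under the replicate block, under treat and without the pair of WT libraries numbered 3 (this last setting was chosen after seeing the data). Leaving out 1 WT library gave 9030 to 9178 genes called, 5732 to 5824 higher, 3284 to 3425 lower, 128 to 172 and 213 to 247 past 4-fold, and 1 to 2 that differed between genotypes (1 without WT 1 h replicate 2 or 3). The replicate block gave 9681 genes called, 5950 higher and 3731 lower, and apart from Nebl, Dph5 and Srf (adjusted p = 0.0605) it changed no call of a named gene. The log2 change of Fcmr was -0.224 after rescaling, 0.331 after quantile normalization and -0.003 to 0.067 when 1 WT library was left out, with the negative value without WT 1 h replicate 1. Of genes called both ways, 56 of 8096 had the opposite sign after rescaling. That of Srf was -0.112 after rescaling and -0.105 after quantile normalization. The rises of Cd79b and Cd72 did not pass the test after rescaling, nor did that of Eef1a1, which also failed after quantile normalization and without a filter. The cause of these differences was not tested. FPKM limits low genes, since 3 fragments on a 2 kb gene are 0.0625 to 0.0779 FPKM.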
